A study of Homo sapiens with 8 samples.

Results

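Most of the 10 genes described here encode enzymes of the methionine cycle and of the routes that leave or feed it. MAT2B encodes a regulatory subunit and AHCYL1 a relative of AHCY. The 10 genes are CTH, CBS, MAT2A, MAT2B, AHCY, AHCYL1, MTR, MTRR, MTAP and CHDH. They were picked by name from the 20263 genes of the expression table, with the outcome of the treatment comparison already known, so their differences between groups are given as a description and not as a test. Of the 10, 9 reached the level needed for the fit across genes, at least 1 TPM in at least 4 libraries, and MTAP did not. RNA was measured in PANC-1, an established human pancreatic cancer cell line, after 24 hours with the solvent DMSO alone or with 10 μM eupalinolide B (EB), a compound from the plant Eupatorium lindleyanum. Each group had 4 libraries, stated in the methods to be biological replicates, although triplicates are also mentioned there. All libraries came from a single cell line, so the spread between them is not that of different tumours. Whether each library was a separate culture is not settled by the sample labels. The comparison asks which transcripts differ in PANC-1 cells after EB.

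The methionine cycle turns methionine into S-adenosylmethionine (SAM), the methyl donor of most methylation reactions in the cell. Each methylation leaves S-adenosylhomocysteine, which is hydrolysed to homocysteine. Homocysteine is either methylated back to methionine or passed through transsulfuration to cysteine, a building block of glutathione. Choline oxidation makes betaine, which in liver and kidney donates a methyl group to homocysteine, and the salvage pathway recovers methionine from the by-product of polyamine synthesis.

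The sequence upstream of CTH is shown because CTH was the member with higher values after EB and because a short motif lies in it. It is the plus strand of chr1:70411018-70411217, from 250 to 51 bases before the RefSeq start site on GRCh38.p14, and the capitals mark TGACGT, the core letters of the cAMP response element, 147 bases before the start site.
CTH: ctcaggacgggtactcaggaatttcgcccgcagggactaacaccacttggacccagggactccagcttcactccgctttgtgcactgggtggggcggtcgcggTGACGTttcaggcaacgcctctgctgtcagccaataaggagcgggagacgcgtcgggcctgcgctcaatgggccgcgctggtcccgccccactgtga
RefSeq windows of 250 bases before and 50 after a start were given for 9 of the 10 genes, 17 windows in all, and were searched on both strands. TGACGT was in 2 of the 17, those of CTH and AHCYL1, and in 7.98% of all 35116 windows. The AHCYL1 window had it at −90 and −28 and, on the other strand, at −88, although the libraries of AHCYL1 overlapped between the groups. TGACNNNGC, the core of the antioxidant response element, was in windows of AHCYL1 and CBS and in 13.3% of all windows. A TGACGT of AHCYL1 and its TGACNNNGC are the same bases, at position −28. TGATGNAA, the core of the amino acid response element bound by C/EBP and ATF factors, was in 0 of the 17 windows and in 3.62% of all. These matches describe letters and not bound sites.

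Values are TPM, a level corrected for transcript length and scaled to a fixed total in each library, so genes can be ranked within a library. How many reads lie behind a value is unknown, so no counting interval can be given. Fold changes are differences of mean log2(TPM + 1) between EB and DMSO, with the standard error (SE) from limma, and the added 1 makes the change of a low gene look smaller than it was. Mitochondrially encoded transcripts took 17.0% to 39.0% of the TPM in the DMSO libraries and 11.6% to 20.3% in the EB libraries. DMSO replicate 4, at 39.0%, stood apart, and log2 fold changes of members with and without it are given below. The median log2 fold change of the 11725 genes tested was −0.11. It was 0.01 after median-ratio scaling and −0.28 after removal of the mitochondrial genes, so differences near these sizes depend on the scaling. Of the markers of duct-type epithelium, KRT8, KRT18 and KRT19 were expressed, whereas KRT7 and EPCAM did not reach 1 TPM in 4 libraries. The summed level of this list was 991.5 to 1454 TPM in DMSO and 3209 to 3593 TPM with EB, and KRT8, KRT18 and KRT19 rose by 1.20, 1.49 and 1.80 on the log2 scale (limma adjusted p = 0.00109, 6.22e-05 and 3.1e-05), in the same direction as CTH. Of the markers of acinar, endocrine, immune, endothelial and liver cells, 0 reached that level, and of 5 fibroblast markers only COL1A1 and COL1A2 did, with a summed list level of 64.0 to 91.8 TPM in DMSO and 38.7 to 50.5 TPM in EB. The part of these differences in the results below was not tested.

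Between EB and DMSO, CTH was higher, MAT2A, MTR, MTRR and CHDH were lower, and the libraries of the groups overlapped for CBS, MAT2B, AHCY and AHCYL1. Over all genes tested, 40.3% passed an adjusted p of 0.05 in limma in either direction, 15.2% as higher and 25.1% as lower with EB. Of the 9 members tested, 1 was past that threshold as higher and 4 as lower. The libraries of the groups did not overlap for the same 5 members, against 36.8% of all genes tested. Nothing is read from these shares, since the members were named with the comparison in view. The median log2 fold change of the 9 was −0.17. Without DMSO replicate 4, the log2 fold changes were 1.55 for CTH, −1.04 for MTR, −0.46 for MTRR and −0.12 for AHCYL1, and those of the other 5 stand beside their values. In bulk RNA, fewer cells of a kind and less RNA per cell cannot be told apart.

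**Figure D1:**
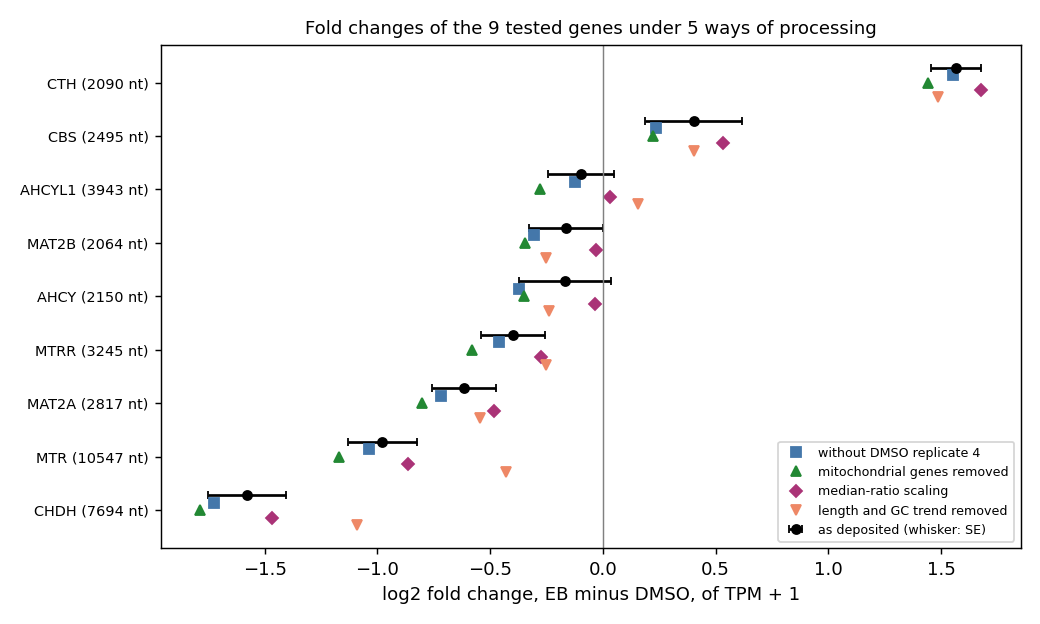
Log2 fold change of TPM + 1, EB minus DMSO, for the 9 members tested, with SE from limma over 4 libraries per group. CTH at 1.57 and CHDH at −1.58 lie farthest from 0, and AHCY, MAT2B and AHCYL1 lie near the median of all genes, −0.11.

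In order of mean level, the DMSO cells had AHCY, MAT2A, CBS, AHCYL1, MAT2B, MTRR, CHDH, MTR, CTH and MTAP. Libraries of neighbouring genes overlapped for AHCY and MAT2A, CBS and AHCYL1, AHCYL1 and MAT2B, and CHDH and MTR. With EB the order differed only in that CTH and CHDH had traded places, and no neighbours overlapped. The summed level of the 10 genes was 753 to 1169 TPM in DMSO and 739 to 959 TPM in EB, and AHCY and MAT2A held 76.3% to 79.8% of it in DMSO and 73.4% to 74.9% in EB.

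**Figure D2:**
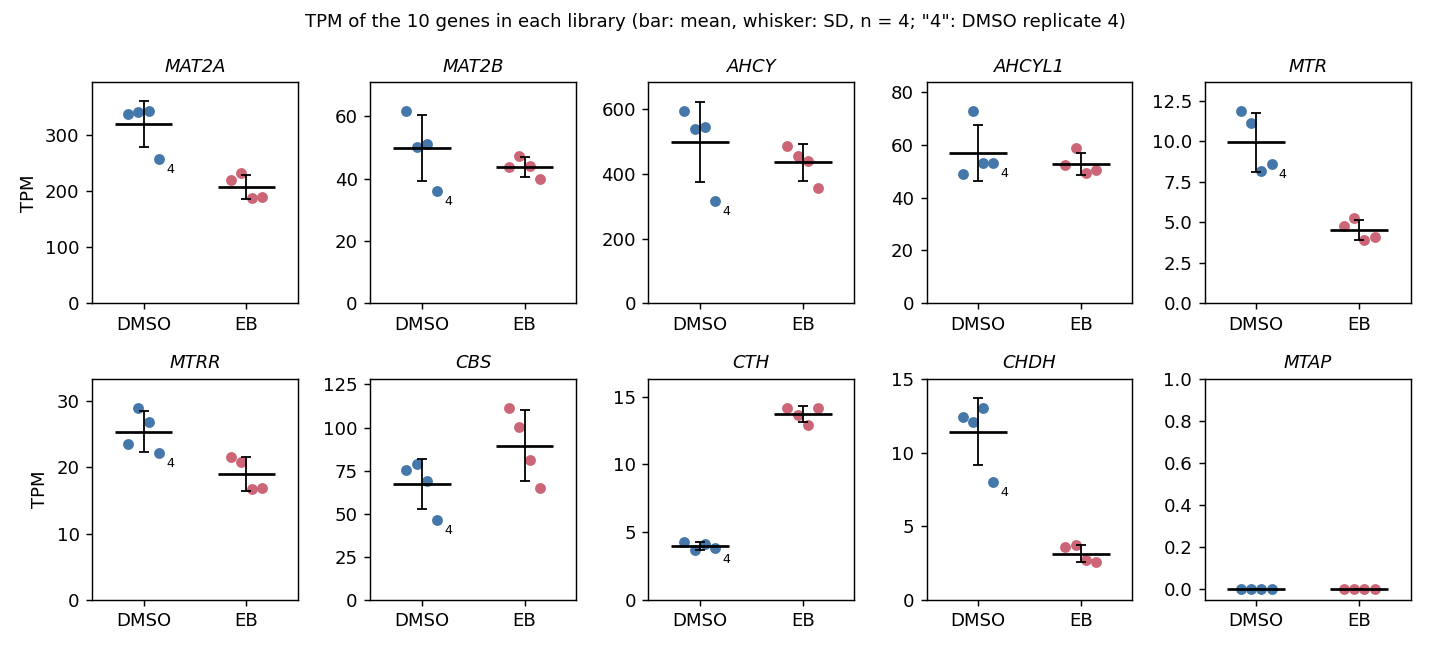
TPM of the members in each library, DMSO and EB side by side, with 1 point per library, a line at the group mean and bars for the SD. The EB points lie above all DMSO points for CTH and below them for MAT2A, MTR, MTRR and CHDH, and MTAP is at 0 in all 8 libraries.

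MAT2A is the catalytic subunit of the methionine adenosyltransferase of most non-liver cells, which makes SAM, and MAT2B is its regulatory partner. MAT2A (ENSG00000168906, chr2:85539168-85545281, plus strand of hg38) had 336.3, 339.8, 342.0 and 256.8 TPM in DMSO replicates 1 to 4 and 219.3, 232.0, 187.2 and 189.8 TPM with EB. Every EB library was below every DMSO library, and the lowest DMSO value was that of replicate 4. The mean was 318.7 ± 41.4 TPM (SD, n = 4) in DMSO and 207.1 ± 22.1 TPM (SD, n = 4) with EB, a log2 fold change of −0.62 (SE 0.14), or −0.72 without DMSO replicate 4.

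MAT2B (chr5:163503114-163519558) had 61.7, 50.3, 51.1 and 36.1 TPM in DMSO and 43.8, 47.3, 44.1 and 39.7 TPM with EB. The groups overlapped, with the lowest value in DMSO replicate 4. Its log2 fold change was −0.16 (SE 0.16), and −0.30 without that library and −0.34 without the mitochondrial genes, where it passed the threshold. It was −0.032 after median-ratio scaling, −0.053 without DMSO replicate 1 and −0.25 with the length and GC trend removed, short of the threshold in each case. A single scaling factor per library cannot alter a ratio of TPM, but quantile normalization or removal of the length and GC trend can. The MAT2A to MAT2B ratio was 6.50 ± 0.722 (SD, n = 4) in DMSO and 4.74 ± 0.340 (SD, n = 4) with EB. Its 4 EB values, 4.25 to 5.01, lay below its DMSO values, 5.45 to 7.11.

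AHCY hydrolyses S-adenosylhomocysteine, which otherwise inhibits methyltransferases, and AHCYL1 is a related protein known as a partner of the inositol trisphosphate receptor. AHCY (chr20:34280268-34311802, minus strand) was the most abundant of the 10, with 594.7, 539.0, 547.0 and 318.0 TPM in DMSO and 488.2, 457.3, 441.2 and 356.3 TPM with EB. The groups overlapped only through DMSO replicate 4, which held the lowest value of all 8. The log2 fold change was −0.17 (SE 0.20), and −0.37 without that library, where AHCY passed the threshold as lower, as it also did after quantile normalization, at −0.38, and after removal of the mitochondrial genes, at −0.35. It lay nearer 0 after median-ratio scaling, at −0.035, without DMSO replicate 1, at −0.070, without DMSO replicate 3, at −0.11, and without EB replicate 4, at −0.073. AHCYL1 (chr1:109984765-110023742) had 49.0 to 72.7 TPM in DMSO and 49.3 to 58.8 TPM with EB, and its log2 fold change was −0.10 (SE 0.15). Its EB values lay within the range of its DMSO values, and its sign turned positive after median-ratio scaling, at 0.03, after removal of the length and GC trend, at 0.16, and without DMSO replicate 2, at 0.03. It was −0.28 with the mitochondrial genes removed and −0.16 without DMSO replicate 1.

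The AHCY to AHCYL1 ratio was 8.96 ± 2.78 (SD, n = 4) in DMSO and 8.28 ± 1.06 (SD, n = 4) with EB, and the libraries overlapped. The AHCY to MAT2A ratio was 1.55 ± 0.223 (SD, n = 4) in DMSO and 2.11 ± 0.222 (SD, n = 4) with EB. It was higher in each EB library, at 1.88 to 2.36, than in any DMSO library, at 1.24 to 1.77.

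MTR, methionine synthase, methylates homocysteine with a cobalamin cofactor, and MTRR reactivates that cofactor. MTR (chr1:236795260-236921278, 33 exons, a transcript of 10547 nt) had 11.8, 11.1, 8.17 and 8.59 TPM in DMSO and 4.77, 5.29, 3.92 and 4.10 TPM with EB. All EB values were below all DMSO values. The EB mean was 45.5% of the DMSO mean, 4.52 ± 0.628 against 9.93 ± 1.83 TPM (SD, n = 4 each), and the log2 fold change was −0.98 (SE 0.15). With the trend of the levels on transcript length and GC content removed, it was −0.43, still past the threshold.

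MTRR (chr5:7851186-7906025) had 23.5, 29.1, 26.9 and 22.2 TPM in DMSO and 21.7, 20.9, 16.8 and 16.9 TPM with EB. The groups did not overlap, but only 22.2 and 21.7 TPM separated them. Its log2 fold change was −0.40 (SE 0.14), and it fell short of the threshold after quantile normalization, after median-ratio scaling, with a pseudocount of 0.1 and when any library other than DMSO replicate 4 was left out. The MTR to MTRR ratio was 0.394 ± 0.0827 (SD, n = 4) in DMSO and 0.237 ± 0.0141 (SD, n = 4) with EB, and its libraries did not overlap. With the length and GC trend removed, the log2 fold changes were closer, at −0.43 for MTR and −0.25 for MTRR. The ratio was not taken under that setting. MTRR shares bases with FASTKD3 on the opposite strand, which reached 12.4 TPM, and MAT2A with GGCX, which reached 9.79 TPM. Whether reads were counted by strand is not stated, so reads in the shared bases could have been counted for either gene.

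CBS joins homocysteine with serine to cystathionine, and CTH, also called cystathionine gamma-lyase, splits cystathionine to give cysteine. CTH (ENSG00000116761, chr1:70411218-70439851, plus strand, 12 exons) had 4.29, 3.64, 4.14 and 3.81 TPM in DMSO and 14.2, 13.7, 12.9 and 14.1 TPM with EB. The groups were far apart and each was tight, with a coefficient of variation of 7.42% in DMSO and 4.41% with EB. The EB mean, 13.7 ± 0.606 TPM (SD, n = 4), was 3.46 times the DMSO mean, 3.97 ± 0.295 TPM (SD, n = 4), and the log2 fold change was 1.57 (SE 0.11). Across all 18 alternatives it lay between 1.44 and 1.82 and was past the threshold. CTH was also past the thresholds the study names, a p of 0.05, taken here as unadjusted, and a log2 fold change of 1.5, which 0.537% of the genes tested passed as higher. It fell short of that fold limit with the mitochondrial genes removed, at 1.44, and with the length and GC trend removed, at 1.49.

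CBS (chr21:43053191-43076943, minus strand) had 75.3, 78.6, 68.9 and 46.4 TPM in DMSO and 111.6, 100.2, 81.3 and 64.7 TPM with EB. The groups overlapped, since EB replicate 4 was below DMSO replicates 1 to 3. The log2 fold change was 0.40 (SE 0.21), 0.24 without DMSO replicate 4 and 0.22 with the mitochondrial genes removed. CBS passed the threshold as higher after median-ratio scaling and after removal of the length and GC trend, but not as deposited.

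Reads of CBS were divided in the table between the CBS identifier and the identifier ENSG00000274276, a near-identical copy at chr21:6444869-6467513 that GENCODE 44 marks as an artifact of the assembly. Their transcripts of 2495 nt differed at 1 base, an identity of 99.96%. The copy had 87.4, 77.8, 82.4 and 47.6 TPM in DMSO and 106.0, 105.1, 100.6 and 80.4 TPM with EB. The CBS identifier held 44.6% to 51.3% of the sum, and the value under that identifier alone leaves out the rest. The sum was 141.1 ± 31.7 TPM (SD, n = 4) in DMSO and 187.5 ± 31.9 TPM (SD, n = 4) with EB, and its libraries also overlapped, with a log2 fold change of 0.42 (SE 0.20).

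The CTH to CBS ratio was 0.0569, 0.0464, 0.0601 and 0.0821 in DMSO and 0.127, 0.137, 0.159 and 0.219 with EB. Each EB library was above each DMSO library, and in both groups CBS transcripts outnumbered those of CTH. With both CBS records summed, the ratio was 0.0294 ± 0.00764 (SD, n = 4) in DMSO and 0.0751 ± 0.0152 (SD, n = 4) with EB, 2.55 times as high.

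CHDH, choline dehydrogenase, is a mitochondrial enzyme that oxidises choline on the way to betaine. CHDH (ENSG00000016391, chr3:53812335-53846419, minus strand, a transcript of 7694 nt) had 12.4, 12.1, 13.1 and 8.03 TPM in DMSO and 3.57, 3.68, 2.71 and 2.54 TPM with EB. All EB values were below the lowest DMSO value, that of replicate 4. The EB mean was 27.4% of the DMSO mean, 3.13 ± 0.584 against 11.4 ± 2.29 TPM (SD, n = 4 each), and the log2 fold change was −1.58 (SE 0.17). It was −1.72 without DMSO replicate 4 and −1.09 with the length and GC trend removed, past the threshold in each case. CHDH also passed the study's thresholds, which 1.54% of the genes tested passed as lower. It fell short of their fold limit after median-ratio scaling, at −1.47, after quantile normalization, at −1.28, and with the length and GC trend removed.

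ALDH7A1, an aldehyde dehydrogenase that can carry out the next step from choline to betaine, had 30.9 to 65.7 TPM in DMSO and 25.4 to 30.7 TPM with EB. It fell by 0.76 on the log2 scale (SE 0.21, limma adjusted p = 0.0188), and this call was lost without DMSO replicate 2 or DMSO replicate 3. With the length and GC trend removed, ALDH7A1 stayed past the threshold at −0.42. The CHDH to ALDH7A1 ratio was 0.232 ± 0.0334 (SD, n = 4) in DMSO and 0.109 ± 0.0136 (SD, n = 4) with EB, without overlap. That ratio is of TPM as deposited and was not taken with the length and GC trend removed. BHMT and BHMT2, the enzymes that use betaine to methylate homocysteine, were listed at 0 in all 8 libraries.

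MTAP cleaves methylthioadenosine, the by-product of polyamine synthesis, in the opening step of methionine salvage. MTAP (ENSG00000099810, chr9:21802636-21937651, a transcript of 6032 nt) was listed at 0 in each of the 8 libraries and could not be compared. In contrast, 10 housekeeping genes were at 27.2 TPM or more in every library. MTAP lay in a run of 29 neighbouring genes of the table, from SLC24A2 to TUSC1, none of which reached 1 TPM in any library. The run covers 6.17 Mb, chr9:19507452-25678444, and its highest value was 0.211 TPM. Genes joined the run only if under 1 TPM in every library. Its share at 0 is therefore not comparable with the 20.3% of all genes in the table. Of the 29, MTAP included, 24 were at 0 in all libraries. Among those 24 were 16 interferon genes, which many unstimulated cells do not express. Of the 13 other genes, 8 were at 0. These 8 include MTAP itself and the record ENSG00000264545, which overlaps MTAP on the same strand.

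CDKN2A and CDKN2B, which encode inhibitors of the cell cycle and lie next to MTAP, were at 0 in all 8 libraries. So were HACD4, IFNE and ELAVL2, while KLHL9, MLLT3, FOCAD and DMRTA1 had 0.0451, 0.0248, 0.0908 and 0.0407 TPM in their highest library. These 9 neighbours were looked at together, and 5 of the 9 were at 0 throughout. Expressed genes lay on either side of the run. The gene that bounds it on the left, ACER2, passed 1 TPM only in DMSO replicate 3, at 1.17 TPM. Beyond ACER2, the ribosomal protein gene RPS6 had a mean of 2157 TPM in DMSO and 2617 TPM with EB. On the right, CAAP1 had 9.65 TPM in DMSO and 5.97 TPM with EB. Runs of low genes were not rare in the table, and this run and that of the immunoglobulin lambda segments on chromosome 22, equally long, ranked 17 by number of genes. Genomic DNA was not measured.

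**Figure D3:**
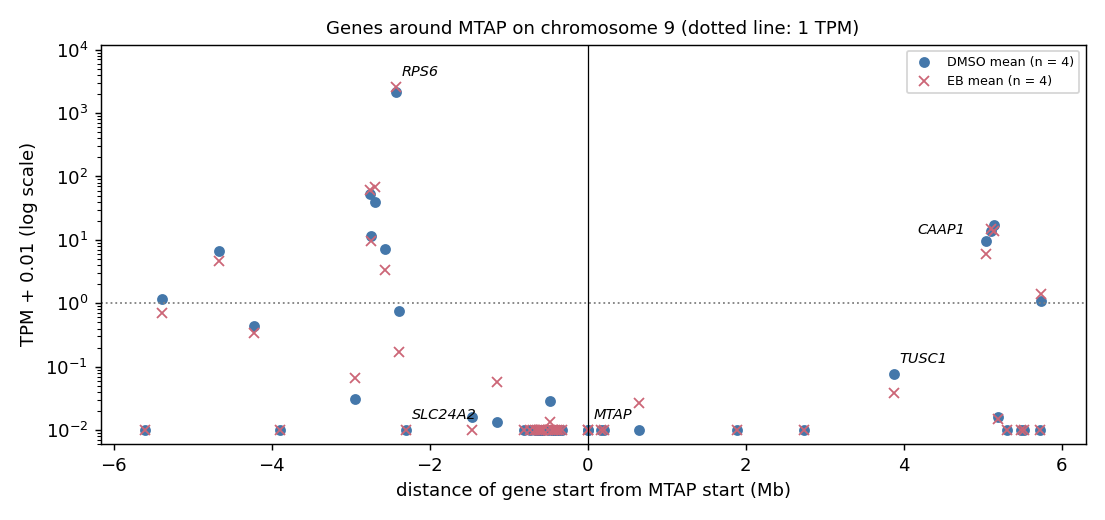
Mean TPM + 0.01 on a log scale of the genes around MTAP on chromosome 9, against the distance of each gene's start from that of MTAP in megabases, with dots for DMSO and crosses for EB (n = 4 each). The genes from SLC24A2 to TUSC1 lie below the dotted line at 1 TPM, and RPS6 and CAAP1 on either side lie above it.

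The other genes of the pathways, 84 in 6 lists, were fitted with the same model, and 71 of them reached the level for testing. Of these, 8 rose (11.3%) and 15 fell (21.1%) at an adjusted p of 0.05, beside 15.2% and 25.1% of all genes tested, and 48 did not pass. Their median log2 fold change was −0.13, beside −0.11 for all genes. The lists were drawn up with results of these data known, so the counts describe the pathways. The shares of all genes tested, 15.2% higher and 25.1% lower, are also the background for each list below.

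In the methionine cycle, 1 of the 2 other genes tested fell and 0 rose. AHCYL2, a relative of AHCYL1, had 8.96 to 13.5 TPM in DMSO and 3.40 to 8.55 TPM with EB and fell by 1.03 on the log2 scale (SE 0.25, limma adjusted p = 0.00937), a call that was lost with the length and GC trend removed. MAT1A, the liver form of the SAM synthetase, did not reach 1 TPM. GNMT, a glycine methyltransferase that uses up SAM, was not tested and was named after its values were seen. Its mean was 1.05 ± 0.327 TPM in DMSO and 0.437 ± 0.228 TPM with EB (SD, n = 4 each).

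Of 8 genes tested in methionine salvage and the entry to polyamines, 3 rose and 2 fell. MRI1 and APIP, which act in the steps after MTAP, fell by 0.98 (SE 0.22, limma adjusted p = 0.00761) and 0.63 (SE 0.12, limma adjusted p = 0.00349). Without DMSO replicate 4, the log2 fold change of MRI1 was −1.21. APIP had 73.3 to 88.7 TPM in DMSO and 45.8 to 54.1 TPM with EB. By contrast, ADI1 and GOT1, of the closing steps of the route, rose. GOT1, the cytosolic aspartate aminotransferase, had 56.3 to 82.8 TPM in DMSO and 107.9 to 135.8 TPM with EB, a log2 fold change of 0.77 (SE 0.15, limma adjusted p = 0.00367). ADI1 rose by 0.94 (SE 0.29, limma adjusted p = 0.0269), with overlapping libraries, and its call was lost with no filter on low values and without DMSO replicate 3, DMSO replicate 4, EB replicate 1 or EB replicate 2. The remaining gene that rose was SRM, spermidine synthase, at 0.61 (SE 0.11, limma adjusted p = 0.00254), which was named after its values were seen.

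Around CTH and CBS, 1 of 10 other genes tested rose, 1 fell and 8 did not pass. SQOR, a mitochondrial enzyme that oxidises hydrogen sulfide, had 15.8 to 21.3 TPM in DMSO and 22.6 to 29.6 TPM with EB and rose by 0.59 (SE 0.14, limma adjusted p = 0.00937). CSAD, which makes hypotaurine from cysteine sulfinate, had 11.8 to 19.3 TPM in DMSO and 6.03 to 9.69 TPM with EB and fell by 0.96 (SE 0.19, limma adjusted p = 0.00399). CDO1, which makes cysteine sulfinate from cysteine, was listed at 0 throughout. SLC7A11, the cystine importer, was below the level for testing and was named after its values were seen. Its mean was 0.229 ± 0.0733 TPM in DMSO and 1.29 ± 0.292 TPM with EB (SD, n = 4 each), and its groups did not overlap.

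Of the 7 genes tested beside CHDH in choline use, ALDH7A1 fell and the other 6 did not pass. DMGDH, SARDH and PIPOX, which degrade the products of betaine, did not reach 1 TPM, and SLC25A48, a mitochondrial carrier, was at 0. The groups overlapped for SARDH and PIPOX but not for DMGDH, at 0.0262 ± 0.0229 TPM in DMSO and 0.379 ± 0.167 TPM with EB (SD, n = 4 each). In cobalamin handling, which supplies MTR and MTRR, 1 of 9 genes tested passed. It was MMUT, the other cobalamin-dependent enzyme, which fell by 0.44 (SE 0.15, limma adjusted p = 0.0371) and lost its call in 8 of 18 alternatives. These were quantile normalization, removal of the length and GC trend, and leaving out any library other than DMSO replicate 4 or EB replicate 2.

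Among the methyltransferases that spend SAM, 9 of 35 genes tested fell (25.7%) and 4 rose (11.4%). Of all genes tested, 25.1% fell and 15.2% rose. The farthest below 0 were the histone methyltransferase genes KMT2D, KMT2A and NSD1 and the DNA methyltransferase gene DNMT3B. KMT2A had 13.0 to 27.1 TPM in DMSO and 5.60 to 8.64 TPM with EB and fell by 1.52 (SE 0.22, limma adjusted p = 0.000891). KMT2D had 5.79 to 21.5 TPM in DMSO and 2.72 to 4.72 TPM with EB and fell by 1.55 (SE 0.32, limma adjusted p = 0.00505). NSD1 fell by 1.11 (SE 0.27, limma adjusted p = 0.0111).

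All 3 have long transcripts, 13042 to 20635 nt, and with the length and GC trend removed the log2 fold changes were −0.98 for KMT2D, −0.94 for KMT2A and −0.54 for NSD1, past the threshold in each case. Without DMSO replicate 4, that of KMT2D was −1.90. DNMT3B, which sets DNA methylation, fell by 0.80 (SE 0.22, limma adjusted p = 0.0172), a call lost without DMSO replicate 3 or EB replicate 3, and with the length and GC trend removed its log2 fold change was −0.50. The 4 that rose, named after their values were seen, were FBL, PCMT1, TPMT and EZH2. FBL, which methylates ribosomal RNA, rose most among them, by 0.72 (SE 0.12, limma adjusted p = 0.0015), from 366.4 to 457.1 TPM in DMSO to 648.1 to 705.5 TPM with EB. NNMT, which methylates nicotinamide, was listed at 0.

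**Figure D4:**
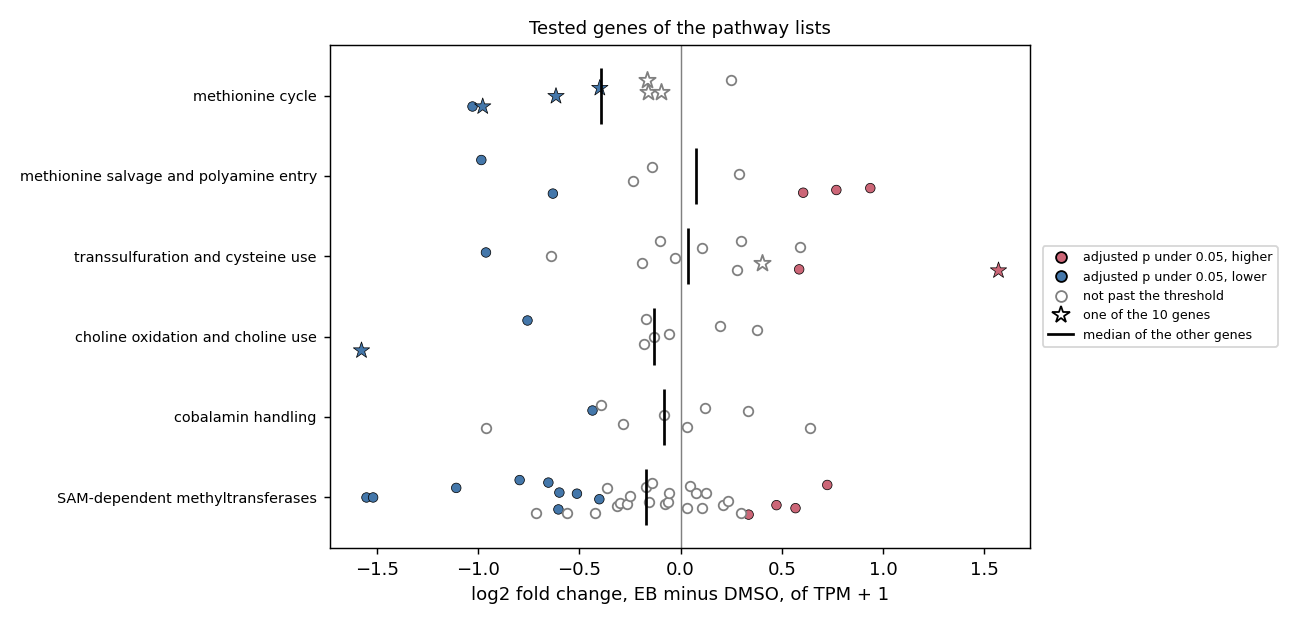
Log2 fold change of TPM + 1, EB minus DMSO, of the tested genes of each pathway list, with stars for members, circles for other genes, colour for an adjusted p under 0.05 and a bar at the median of the other genes. CTH and CHDH are the outermost points of their lists, and the median bar of the methionine cycle, at −0.39, rests on 2 genes.

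The tested genes with profiles most like that of CTH over the 8 libraries, by the root mean square difference of centred log2(TPM + 1), were GPR3 at 0.0881, CTSL at 0.114 and KRT18 at 0.126. GPR3, an orphan receptor, had a mean of 7.36 ± 0.491 TPM in DMSO and 21.9 ± 1.24 TPM with EB (SD, n = 4 each). For CHDH they were SLC39A10 at 0.0452, LIPG at 0.0800 and ADGRG6 at 0.0821. SLC39A10, a zinc importer, had 32.4 ± 6.18 TPM in DMSO and 10.5 ± 1.94 TPM with EB (SD, n = 4 each). These genes are a description of likeness over the same libraries.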

How the data were processed

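Total RNA of PANC-1 cells was sequenced as mRNA libraries, 4 with DMSO and 4 with EB. The authors deposited TPM per gene and library. Their methods describe trimming, mapping, counting and normalization in CLC Genomics Workbench and also list Trimmomatic, Bowtie2, HISAT2 and StringTie, so the tool that made the TPM is not settled. The sources give GrCM38 in one place and hg38 in another as the reference, and the identifiers are human. The annotation and strand setting are not given in the sources used here. Columns headed C were read as DMSO and those headed H, which no source explains, as EB, the only other group. Symbols, positions and lengths came from GENCODE 44 on hg38 (20148 identifiers matched, 115 did not) and may differ from the annotation the authors used.

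Genes with at least 1 TPM in at least 4 libraries were fitted as log2(TPM + 1) with limma 3.58.1 in R 4.3.3, without covariates, as the study used limma, and p-values were adjusted by the Benjamini-Hochberg method over all 11725 genes. The fit was tested on simulated data. Named were the 10 members, the 3 genes nearest in profile to CTH and to CHDH, and the 9 listed neighbours of MTAP. From each pathway list came at most the 4 genes with the largest change among those past an adjusted p of 0.05. List genes with a mean under 1 TPM in both groups could also be named. SRM, GNMT, SLC7A11, FBL, PCMT1, TPMT and EZH2 were named outside this rule, after their values were seen. One gene planned for the lists is not reported here. The members and lists were chosen with earlier results of these data known. Alternatives covered the pseudocount, filters, scaling, mitochondrial genes, length and GC content, variance prior, replicate block, call rule and each library left out. The depth per library is unknown, so the precision of a TPM value rests on the spread of 4 libraries. Python 3.11.15 drew the figures.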

Additional observations from a re-analysis of the deposited data

Results flagged for a closer look

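Of 44 sets of 4 libraries examined for the genes named, 3 had a library whose gap to the nearest of the others, as a share of the set's range, was above Dixon's critical value, a size that chance gives in about 1 in 20 sets. MAT2A was at 256.8 TPM in DMSO replicate 4, with the next value at 336.3 TPM. MRI1 was at 27.4 TPM in DMSO replicate 4, with the next value at 51.2 TPM. Both are low values of the library with 39.0% mitochondrial TPM, and the part of that share in them was not tested. KMT2A was at 8.64 TPM in EB replicate 2, with the next value at 5.81 TPM.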

How the results depend on the processing

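CTH, MAT2A, MTR and CHDH kept their direction and stayed past an adjusted p of 0.05 in limma under all 18 alternatives, and no log2 fold change of a member past the threshold changed sign. Of 162 member values, 13 moved by more than 1 SD. As deposited, 1785 genes were higher and 2944 lower (37.7% of calls higher), 1 member higher and 4 lower, and 8 other pathway genes higher and 15 lower. Median-ratio scaling gave 3146 higher and 3001 lower (51.2% higher). It gave 2 members higher (CBS added), 3 lower (MTRR lost) and 18 other pathway genes higher. Quantile normalization gave 2792 genes higher and 2759 lower (50.3% higher), with 4 members lower (AHCY added, MTRR lost). With mitochondrial genes removed, 1451 were higher and 4954 lower (22.7% higher). In that setting 6 members (MAT2B and AHCY added) and 26 other pathway genes were lower. With the length and GC trend removed, 2841 were higher and 2552 lower (52.7% higher), with 2 members and 17 other pathway genes higher. The study's thresholds, applied to the present fit, gave 63 higher and 181 lower (25.8% higher), with 1 member lower. Among the other pathway genes they gave 0 higher and 2 lower. The study itself reports more upregulated than downregulated genes, so its counts were not reproduced here. The cause of these shifts was not tested.

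Leaving out each library gave 1270 to 1826 genes higher and 2073 to 4333 lower, 1 to 1 members higher and 3 to 6 lower, and 6 to 8 other pathway genes higher and 9 to 26 lower. The ends for the other pathway genes lower were without DMSO replicate 3 (9) and without DMSO replicate 4 (26), and without DMSO replicate 4 all genes gave 1826 higher and 4333 lower. Same-numbered libraries deviated together with correlations of 0.18, 0.05, −0.09 and 0.28, and only numbers 1 and 4 matched best with their own, so the numbers were not taken as pairs. With the replicate block, 2 members were higher (CBS added) and 4 lower, among 2231 genes higher and 3525 lower. Summing CBS with its copy, an alternative chosen after seeing the data, changed no call. Without read counts, low genes such as MTAP, SLC7A11 and GNMT cannot be given a detection limit.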
